A study of Drosophila melanogaster with 46 samples.

Results

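Transcript abundance of 9 genes that make, store or release fat was measured in whole female Drosophila melanogaster of 2 lines on 3 diets and at 2 ages. The genes were ACC, FASN1 and Desat1 (fatty acid synthesis and desaturation), SREBP (a transcription factor of lipid synthesis genes), Lpin and mdy (triglyceride synthesis), Lsd-1 and Lsd-2 (lipid droplet coat) and bmm (triglyceride lipase). They were taken by name from a fixed list, and 9 of 9 listed genes were found on the Affymetrix array among 11981 genes measured. Each had 1 probe set, a set of short probes on the array that reads 1 transcript group. The rule names the genes and uses no measured value, but the list was drawn up with earlier results of these data known.

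Flies store energy as triglyceride in lipid droplets, mostly in the fat body, an organ that combines functions of liver and adipose tissue. Acetyl-CoA is carboxylated and built into fatty acids, which are desaturated and esterified to glycerol in steps that pass through phosphatidate and diacylglycerol. Perilipins coat the droplets and control the access of lipases, which release the fatty acids when food is scarce or when eggs are provisioned.

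The SR flies came from 1 line selected for starvation resistance, which is also long-lived, and the C flies from 1 unselected control line of the same origin, and the p-values given here therefore cover variation between fly pools but not between selection lines. Each sample was a pool of 5 virgin females, which as adults were kept on medium with yeast and sugar at 0.5 times (malnutrition), 2 times (optimal food) or 5 times (overfeeding) the standard concentration, after larval growth on standard medium. Flies were taken at middle age (90% of the cohort alive) or at old age (10% alive). Age was thus set by survival, and flies of 1 age class on different diets or of different lines can differ in days of age. The 12 groups were middle-aged and old SR flies and middle-aged and old C flies on each of the 3 diets, with 4 arrays in each, or 3 in the malnourished and the overfed old C flies. No transgene or mutation is named for either line.

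Values are log2 intensities summarised by the authors with RMA, and 1 unit is a doubling. The median array value ran from 5.04 to 5.27, and arrays of a group correlated at r = 0.974 to 0.998 over all 18952 probe sets (66 pairs). The 9 genes were bright, with mean values between 9.20 (Lpin) and 12.18 (FASN1), above 83.0% to 99.0% of all probe sets. Differences are given in log2 with the standard error from limma, which was fitted to all 46 arrays, and a gene was called changed at an adjusted p under 0.05 after Benjamini-Hochberg adjustment over all probe sets. Over all arrays the fat body genes apolpp (lipophorin) and Pepck1 were bright, with means of 12.63 and 11.86, whereas the larval fat body genes Fbp1 and Fbp2 had means of 4.58 and 4.02. RNA came from whole flies, so fewer fat cells and less RNA per fat cell cannot be told apart.

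Lsd-1 and FASN1 varied most over the 12 groups. The group means of Lsd-1 spanned 3.07 in log2, or 8.40-fold, from 7.88 in old SR flies on malnutrition to 10.95 in old SR flies on overfeeding. FASN1 spanned 2.24, or 4.72-fold, between the same groups (10.74 and 12.97). Lpin spanned 1.19 (2.29-fold), from 8.63 in middle-aged SR flies on overfeeding to 9.83 in old C flies on malnutrition. The spans of ACC (0.82), mdy (0.75) and bmm (0.68) were smaller, and those of Lsd-2 (0.47), Desat1 (0.47) and SREBP (0.38) were the smallest. When the groups were ordered by mean, the arrays of neighbouring groups overlapped in 11 of 11 steps for Lsd-2, mdy, Lpin, ACC, Desat1 and SREBP and in 10 of 11 for bmm, Lsd-1 and FASN1, so most neighbours in the order did not differ beyond their spread.

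**Figure D1:**
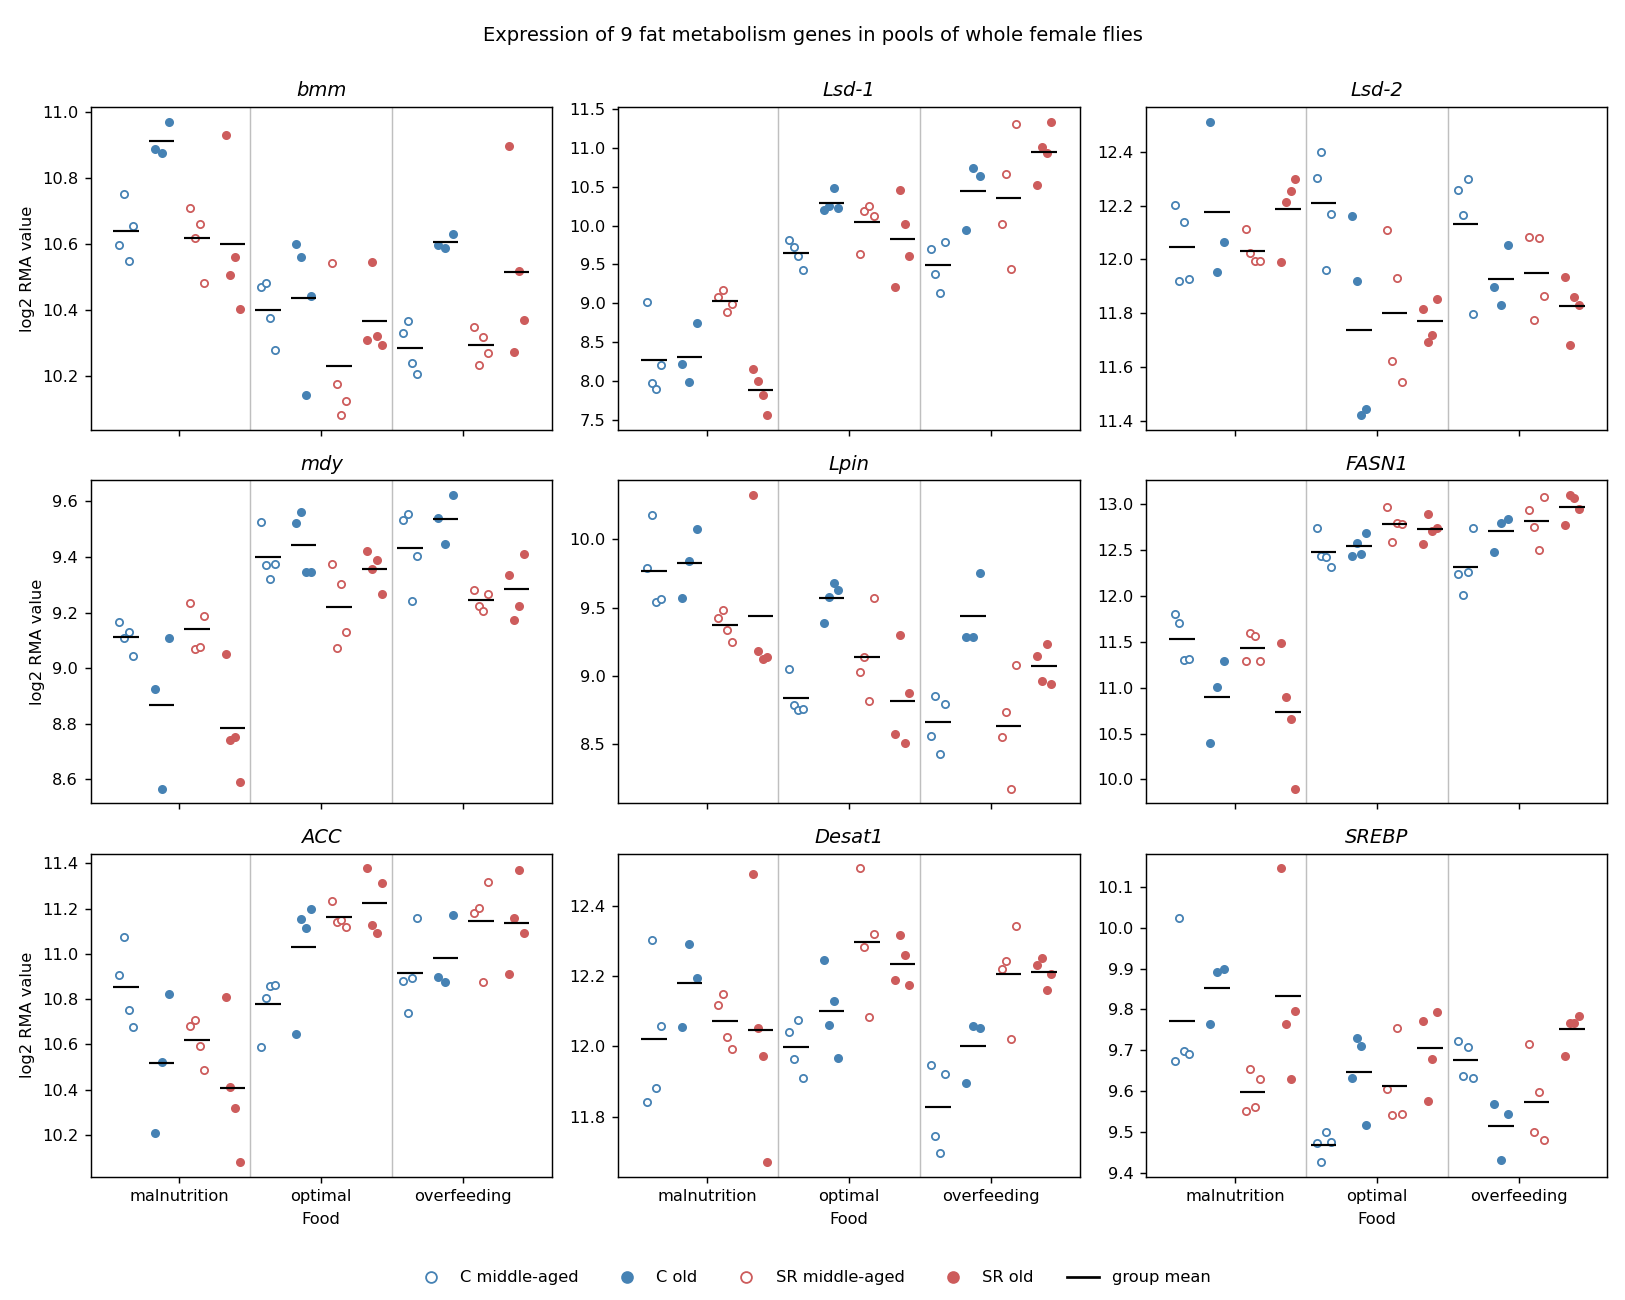
Log2 transcript abundance of the 9 genes (vertical axes, 1 panel per gene) in the 12 groups of line, diet and age (horizontal axis). Each point is 1 array, open at middle age and filled at old age, and each horizontal bar the mean of its group. On malnutrition FASN1 lay between 9.90 and 11.81 and on the other diets between 12.01 and 13.10, whereas Desat1 stayed between 11.67 and 12.51 on all diets.

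FASN1 encodes the main fatty acid synthase, which extends acetyl-CoA with malonyl-CoA units into long-chain fatty acids. In middle-aged C flies its values were 11.81, 11.71, 11.30 and 11.31 on malnutrition and 12.74, 12.44, 12.43 and 12.32 on optimal food. In old C flies they were 10.40, 11.01 and 11.29 against 12.44, 12.58, 12.46 and 12.69. In middle-aged SR flies the malnutrition arrays read 11.29, 11.60, 11.56 and 11.29 and the optimal food arrays 12.97, 12.59, 12.80 and 12.78. The values of old SR flies were 11.49, 10.89, 10.66 and 9.90 against 12.57, 12.90, 12.71 and 12.74. Every malnutrition array lay below every array on optimal food and on overfeeding (15 against 31 arrays), in both lines and at both ages. FASN1 was the only 1 of the 9 genes without any such overlap, which held for 1.35% of all probe sets. The difference between malnutrition and optimal food was -0.95 ± 0.20 in middle-aged C flies (limma, adjusted p = 0.000552), -1.64 ± 0.21 in old C flies (adjusted p = 3.31e-07), -1.35 ± 0.20 in middle-aged SR flies (adjusted p = 7.66e-06) and -1.99 ± 0.20 in old SR flies (adjusted p = 1.06e-09), the last a 3.98-fold lower level.

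ACC encodes acetyl-CoA carboxylase, which makes the malonyl-CoA that fatty acid synthase uses. In old SR flies it read 10.81, 10.41, 10.32 and 10.08 on malnutrition and 11.38, 11.13, 11.09 and 11.31 on optimal food, without overlap. The difference was -0.82 ± 0.13 in old SR flies (limma, adjusted p = 1.16e-05), -0.54 ± 0.13 in middle-aged SR flies (adjusted p = 0.00489) and -0.51 ± 0.14 in old C flies (adjusted p = 0.0101). Middle-aged C flies were the exception, with 10.91, 11.08, 10.75 and 10.68 on malnutrition and 10.59, 10.80, 10.86 and 10.86 on optimal food, which overlapped (0.07 ± 0.13, adjusted p = 0.788). The lines' malnutrition effects at middle age differed by -0.62 ± 0.19, which did not pass (adjusted p = 0.0657). Neither did the difference between the ages within C flies, -0.59 ± 0.20 (adjusted p = 0.0672). The difference between lines passed without middle-aged C malnutrition replicate 3 (-0.65, adjusted p = 0.0433). That between ages passed without old C malnutrition replicate 3 (-0.74, adjusted p = 0.0244) or old C optimal food replicate 1 (-0.71, adjusted p = 0.0161). The malnutrition call in old C flies was lost without malnutrition replicate 1 (-0.36, adjusted p = 0.139).

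Desat1, the stearoyl-CoA desaturase that puts the first double bond into fatty acids, was not called for malnutrition in any line or age. Its differences lay between -0.23 ± 0.11 in middle-aged SR flies (limma, adjusted p = 0.167) and 0.08 in old C flies. Over all arrays Desat1 ran from 11.67 to 12.49 on malnutrition (median 12.06) and from 11.70 to 12.51 on the other diets (median 12.13). The desaturase thus overlapped nearly completely between diets on which its upstream synthase did not overlap at all.

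Lsd-1 encodes perilipin 1, a droplet coat protein through which adipokinetic hormone signalling opens the droplet to lipases. In C flies the malnutrition arrays read 9.02, 7.98, 7.90 and 8.20 at middle age and 8.22, 7.98 and 8.74 at old age, and the optimal food arrays 9.82, 9.73, 9.61 and 9.42 and 10.21, 10.25, 10.49 and 10.23. In SR flies the values were 9.08, 9.18, 8.88 and 8.99 at middle age and 8.15, 8.00, 7.82 and 7.56 at old age on malnutrition, against 9.63, 10.19, 10.26 and 10.13 and 9.21, 10.46, 10.02 and 9.61 on optimal food. In each of these 4 comparisons all malnutrition arrays lay below all optimal food arrays. The difference was -1.37 ± 0.27 in middle-aged C flies (limma, adjusted p = 0.000292), -1.98 ± 0.29 in old C flies (3.95-fold lower, adjusted p = 3.32e-06), -1.02 ± 0.27 in middle-aged SR flies (adjusted p = 0.00924) and -1.94 ± 0.27 in old SR flies (3.84-fold lower, adjusted p = 9.08e-07).

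Lsd-2 encodes perilipin 2, a coat protein of droplets in fat body and ovary that shields stored fat from lipases. Its malnutrition arrays read between 11.92 and 12.51 (median 12.06) and those of the other diets between 11.42 and 12.40 (median 11.90). Lsd-2 was 0.44 ± 0.15 higher on malnutrition than on optimal food in old C flies (limma, adjusted p = 0.0334) and 0.42 ± 0.14 higher in old SR flies (adjusted p = 0.0289). These directions turned (-0.46 and -0.52) when arrays were centred on neuron genes. That scaling, described below, lowers a given malnutrition difference of every probe set alike. Old C flies on optimal food were spread widely, at 12.16, 11.92, 11.42 and 11.45, and overlapped with those on malnutrition (12.51, 11.95 and 12.06). The call in old C flies was lost without any 1 of 3 arrays, down to 0.27 with an adjusted p of 0.304 (without malnutrition replicate 1), and that in old SR flies without any 1 of 5. At middle age Lsd-2 was not called in either line (-0.16 in C flies, 0.23 in SR flies).

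bmm encodes brummer, the fly homologue of mammalian adipose triglyceride lipase. In old C flies bmm read 10.89, 10.88 and 10.97 on malnutrition and 10.60, 10.56, 10.14 and 10.44 on optimal food. In middle-aged SR flies it read 10.71, 10.62, 10.66 and 10.48 against 10.54, 10.17, 10.08 and 10.12. The first pair of groups did not overlap, and in the second 1 optimal food array lay above 1 malnutrition array. The level was higher by 0.48 ± 0.12 in old C flies (limma, adjusted p = 0.00295) and by 0.39 ± 0.11 in middle-aged SR flies (adjusted p = 0.0133), which became -0.42 and -0.21 with arrays centred on neuron genes. It was not called in middle-aged C flies (0.24 ± 0.11, adjusted p = 0.156) or in old SR flies (0.23 ± 0.11, adjusted p = 0.160). The call in SR flies was lost without optimal food replicate 4 (0.35, adjusted p = 0.0530). That in old C flies was lost when only the compared groups were fitted (adjusted p = 0.0588).

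Lpin encodes lipin, the phosphatidate phosphatase that yields the diacylglycerol for fat synthesis. Middle-aged C flies read 9.79, 10.18, 9.54 and 9.56 on malnutrition and 9.05, 8.78, 8.75 and 8.75 on optimal food, without overlap. Old SR flies read 10.32, 9.19, 9.12 and 9.14 against 8.58, 9.30, 8.51 and 8.87, so that 1 malnutrition array stood far above the others. Lpin was higher on malnutrition by 0.93 ± 0.20 in middle-aged C flies (limma, adjusted p = 0.000871) and by 0.63 ± 0.20 in old SR flies (adjusted p = 0.0267), which turned to -0.13 and -0.31 with arrays centred on neuron genes. The latter was 0.33 (adjusted p = 0.213) without malnutrition replicate 1, and its call was also lost without optimal food replicate 1 or 3. Old C flies (0.26 ± 0.22, adjusted p = 0.487) and middle-aged SR flies (0.23 ± 0.20, adjusted p = 0.486) were not called.

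The gene midway (mdy) encodes diacylglycerol acyltransferase 1, which attaches the last fatty acid of triglyceride. In old SR flies it read 9.05, 8.74, 8.75 and 8.59 on malnutrition and 9.42, 9.36, 9.39 and 9.27 on optimal food. In old C flies the values were 8.93, 8.57 and 9.11 against 9.52, 9.56, 9.35 and 9.35. Neither pair overlapped, and the difference was -0.58 ± 0.09 in old SR flies (limma, adjusted p = 7.65e-06) and -0.58 ± 0.10 in old C flies (adjusted p = 3.01e-05). In middle-aged C flies the difference was -0.29 ± 0.09 (adjusted p = 0.0279, lost without any 1 of 3 arrays), and in middle-aged SR flies -0.08 ± 0.09 (adjusted p = 0.629). The ages of SR flies differed in this effect by -0.50 ± 0.13 (adjusted p = 0.0579), which was -0.59 (adjusted p = 0.0104) without old malnutrition replicate 1.

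SREBP encodes the membrane-bound activator of fatty acid synthesis genes, whose release in flies responds to phosphatidylethanolamine and not to sterols. It was called higher on malnutrition in middle-aged C flies, at 9.67, 10.02, 9.70 and 9.69 against 9.47, 9.43, 9.50 and 9.48 on optimal food. These arrays did not overlap, and the difference was 0.30 ± 0.08 (limma, adjusted p = 0.00672), but -0.76 with arrays centred on neuron genes. Without malnutrition replicate 2 it was 0.22 (adjusted p = 0.0836). In old C flies it read 9.76, 9.89 and 9.90 on malnutrition and 9.63, 9.73, 9.71 and 9.52 on optimal food, also without overlap, but was not called (0.20 ± 0.09, adjusted p = 0.104, and -0.70 with arrays centred on neuron genes), and the ages of C flies differed in this effect by -0.10 ± 0.12 (adjusted p = 0.677). Middle-aged SR flies (-0.01) and old SR flies (0.13 ± 0.08, adjusted p = 0.338) were not called, and that malnutrition changed SREBP differently in the lines at middle age did not pass (-0.31 ± 0.11, adjusted p = 0.103).

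In counts, malnutrition changed 5 of 9 genes in middle-aged C flies, against 14.1% of all probe sets, of which 2 were higher (9.03% of all probe sets) and 3 lower (5.09%). In old C flies it changed 6 genes against 17.5%, 2 higher (9.52%) and 4 lower (7.97%). In middle-aged SR flies it changed 4 genes against 13.8%, 1 higher (7.36%) and 3 lower (6.4%). In old SR flies it changed 6 genes against 16.2%, 2 higher (8.24%) and 4 lower (8%). The arrays of both diets did not overlap for 6, 5, 3 and 5 of the 9 genes in the same order, against 18.3%, 20.1%, 22.2% and 16.7% of all probe sets. Together these were 21 of 36 gene by comparison pairs (7 higher and 14 lower), against 15.4% of all pairs. The median difference of the 9 genes was 0.02, 0.08, -0.08 and -0.19, beside -0.04, 0.03, -0.01 and 0.03 over all probe sets. Of the 11 contrasts that compare effects between lines or ages, 5 involve malnutrition and called none of the 9 genes. They called 0.0264% to 5.20% of all probe sets, so the lack of calls does not show that the effects were alike.

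Averaged with equal weight over lines and ages, malnutrition changed 8 of the 9 genes, against 31.7% of all probe sets, with 4 higher (18.2%) and 4 lower (13.5%). Lsd-1 (-1.58 ± 0.14, limma, adjusted p = 5.24e-12), FASN1 (-1.48 ± 0.10, adjusted p = 7.93e-15), ACC (-0.45 ± 0.07, adjusted p = 1.06e-06) and mdy (-0.38 ± 0.05, adjusted p = 1.49e-08) were lower. Lpin (0.51 ± 0.10, adjusted p = 0.000111), bmm (0.33 ± 0.06, adjusted p = 5.60e-06), Lsd-2 (0.23 ± 0.07, adjusted p = 0.00867) and SREBP (0.16 ± 0.04, adjusted p = 0.00256) were higher. The latter 4 turned to -0.36, -0.54, -0.64 and -0.72 when each array was centred on its neuron genes. That centring moved the average difference of every probe set by -0.87, so it made the falls of the other 4 genes larger as well. Desat1 was not called (-0.08 ± 0.06, adjusted p = 0.319). None of the 8 calls was lost when any 1 array was left out.

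**Figure D2:**
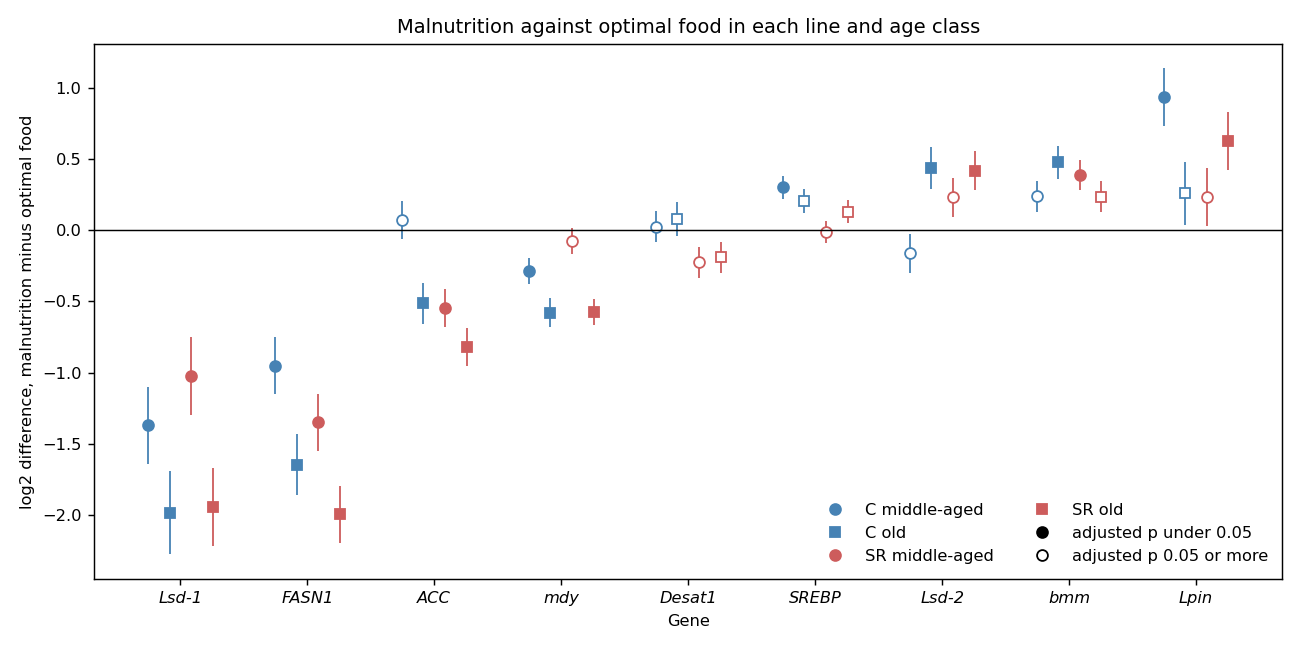
Log2 difference between malnutrition and optimal food (vertical axis) for each of the 9 genes (horizontal axis) in middle-aged and old C and SR flies. Points are limma estimates, bars are 1 standard error, and filled points passed an adjusted p of 0.05. FASN1 and Lsd-1 were lower in 4 of 4 comparisons, between -0.95 and -1.99, whereas bmm, Lpin, Lsd-2 and SREBP were higher in those that passed. The latter directions turned with arrays centred on neuron genes, which lowers every probe set alike.

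Genes that mark other tissues moved with diet as well, in an average contrast that called 18.2% of all probe sets higher and 13.5% lower. The mean of 8 neuron genes lay between 6.96 and 7.61 on malnutrition and between 5.70 and 6.77 on the other diets, without overlap, and 8 of 8 were called higher on average (median 0.92). Muscle genes were called higher in 7 of 8 (median 0.57) with array means of 9.35 to 10.52 against 8.06 to 10.19. Midgut genes were called lower in 7 of 7 (median -0.96), with array means of 7.23 to 9.32 against 8.73 to 10.15. Follicle cell genes, which make the eggshell, were called lower in 7 of 10 (median -2.63), with array means of 4.75 to 5.44 against 5.27 to 12.26, the former near the array median. Of the fat body genes 3 of 7 were called lower (median -0.30, array means 7.08 to 8.66 against 8.08 to 9.36). These 7 include Fbp1 and Fbp2, whose means of 4.58 and 4.02 lay below the array medians of 5.04 to 5.27. A fall in such dim genes can hardly be read. Of the oenocyte genes 4 of 5 were called lower (median -0.34, array means 8.21 to 9.95 against 9.40 to 10.78), although 3 of these 5 (FASN3, eloF and Fad2) also belong to the fatty acid synthesis list below. Germline genes (1 higher and 3 lower of 14, array means 9.43 to 10.05 against 9.47 to 10.17) and haemocyte genes (2 of 6 lower, array means 5.14 to 6.66 against 5.19 to 6.43) moved least. Centring every array on its neuron genes subtracts 1 value from all its probe sets. A rise smaller than the resulting shift thus turns for any gene. The average malnutrition difference of every probe set shifted by the same -0.87, from a median of -0.00 to -0.88. The values of bmm, Lsd-2, Lpin and SREBP under that centring, given above, all lay above this median. That follows from the shared shift for any gene above the median before centring. The part that tissue composition had in the differences of the 9 genes was not tested.

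The other genes of fat metabolism were followed as lists that had been drawn up from pathway knowledge. Of 14 measured genes of fatty acid synthesis and elongation, malnutrition lowered 9 on average (13.5% of all probe sets) and raised none (18.2% of all probe sets), with a median of -0.30 beside -0.00 over all probe sets. The 9 include FASN3, eloF and Fad2, counted above among the oenocyte genes. The largest differences belonged to enzymes known from oenocytes and female hydrocarbon synthesis, the desaturase gene Fad2 (-2.47 ± 0.22, limma, adjusted p = 9.32e-12) and the elongase gene eloF (-2.04 ± 0.19, adjusted p = 3.36e-11). Fad2 ran from 5.89 to 9.89 on malnutrition and from 9.79 to 11.30 on the other diets, so the arrays overlapped only at the edge. AcCoAS, the acetyl-CoA synthetase, read 10.09 to 10.91 against 10.95 to 12.18, without overlap, (-0.92 ± 0.07, adjusted p = 1.70e-13). Malic enzyme (Men, -0.62 ± 0.07), a source of NADPH for fatty acid synthesis, the elongase bond (-0.93 ± 0.13), Acsl (-0.39), FASN3 (-0.34), Elo68alpha (-0.25) and Cyt-b5 (-0.18) were also called lower. ATP citrate lyase (ATPCL) was not called (-0.10 ± 0.14, adjusted p = 0.647), nor was FASN2 (-0.15 ± 0.13, adjusted p = 0.428). By comparison, 4 genes of this list were called lower in middle-aged C flies (5.09% of all probe sets), 5 in old C flies (7.97%), 5 in middle-aged SR flies (6.4%) and 8 in old SR flies (8%), with none higher in any of them.

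Genes of glycerolipid synthesis were called lower in 7 of 14 and higher in 2, against 13.5% and 18.2% of all probe sets (median -0.14). Agpat2 (-0.43 ± 0.07), Agpat3 (-0.26 ± 0.04) and Agpat4 (-0.41 ± 0.04), which make phosphatidate, and Gpdh1 (-0.37 ± 0.07), which makes glycerol 3-phosphate, were among those lower. The DGAT2 family genes CG1946 (-0.88 ± 0.11), CG1941 (-0.79 ± 0.11) and Dgat2 (-0.34 ± 0.11) were lower too, as mdy was. CG1946 (4.07 to 4.84) and Dgat2 (4.06 to 5.26) were dim on malnutrition, mostly below the array medians of 5.04 to 5.27, so that the sizes of their differences are uncertain. Pcyt1, which makes the CDP-choline for phosphatidylcholine, went the other way, at 9.86 to 11.25 on malnutrition and 8.97 to 9.76 on the other diets, without overlap (1.07 ± 0.08, limma, adjusted p = 3.68e-14), which was 0.19 (adjusted p = 0.0142) with arrays centred on neuron genes. Pect, its counterpart in phosphatidylethanolamine synthesis, was called higher by 0.20 ± 0.04, a direction that turned with arrays centred on neuron genes (-0.68).

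Of 7 genes of droplet proteins and lipases, 4 were called lower and 2 higher, against 13.5% and 18.2% of all probe sets (median -0.18). Ldsdh1, a droplet-bound dehydrogenase (-0.86 ± 0.12), doppelganger von brummer (dob), a paralogue of bmm (-0.46 ± 0.06), Seipin (-0.20) and Fitm (-0.18), which serve droplet formation, were lower. The gene pummelig (puml), which encodes a lipid hydrolase, was higher by 0.74 ± 0.06 (limma, adjusted p = 5.43e-13) and CG5966, a predicted lipase, by 0.84 ± 0.15 (adjusted p = 3.02e-05), which turned to -0.14 and -0.03 with arrays centred on neuron genes. Arrays of puml did not overlap between malnutrition (10.06 to 10.62) and the other diets (9.14 to 9.87). Jabba, a histone anchor on droplets, was not called (0.02 ± 0.08, adjusted p = 0.875).

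Of 14 fatty acid oxidation genes, 7 were called lower and 1 higher, against 13.5% and 18.2% of all probe sets (median -0.13). The lower ones included the peroxisomal genes Mfe2 (-0.56 ± 0.08, limma, adjusted p = 1.26e-07) and Acox57D-d (-0.40 ± 0.07, adjusted p = 6.78e-06) and the mitochondrial genes CPT2 (-0.32 ± 0.04), colt (-0.27 ± 0.06) and wal (-0.23 ± 0.04). Withered (whd), the carnitine palmitoyltransferase that admits fatty acids to mitochondria, was called higher by 0.11 ± 0.04, a direction that turned with arrays centred on neuron genes (-0.76). Of 8 regulators, 2 were lower and 3 higher, against the same shares (median 0.07). The lower ones were the sugar-responsive transcription factor sugarbabe (sug, -0.94 ± 0.14) and its upstream activator Mondo (-0.30 ± 0.03). foxo (0.33 ± 0.07), the SREBP escort SCAP (0.26 ± 0.04) and the Mondo partner bigmax (0.24 ± 0.06) were higher, and each turned negative with arrays centred on neuron genes (-0.54, -0.61 and -0.63).

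**Figure D3:**
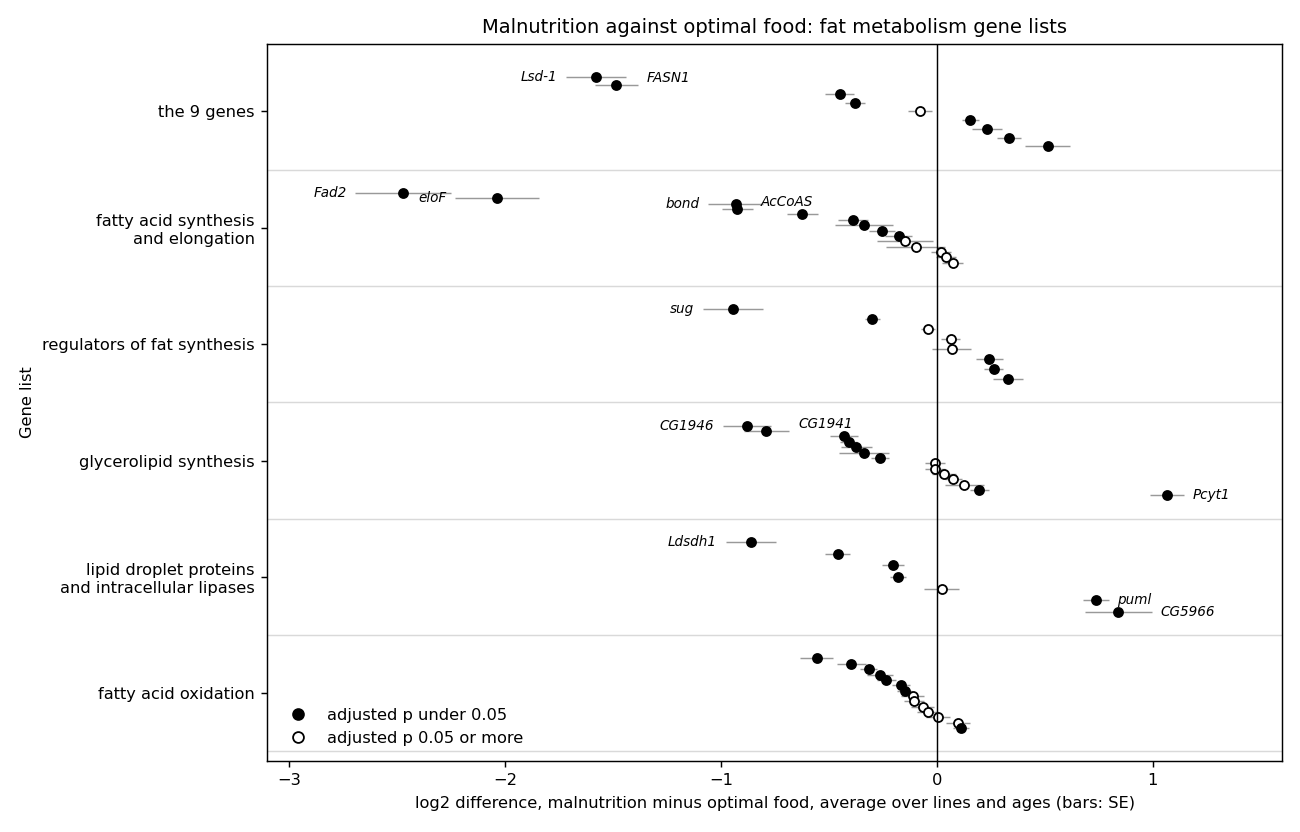
Average log2 difference between malnutrition and optimal food (horizontal axis) for the 9 genes and the measured genes of 5 pathway lists (rows), 1 point per gene with its standard error. Filled points passed an adjusted p of 0.05 in limma, and the genes furthest from 0 are named. In the synthesis and elongation list 9 of 14 genes passed and lay below 0, down to -2.47 for Fad2. Centring arrays on neuron genes shifts every point by -0.87. With it called positive values turned negative, other than that of Pcyt1, which went from 1.07 to 0.19.

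Age effects on the 9 genes were called at a share near that of all probe sets. Comparing old with middle-aged flies within each line and diet called 3 of 54 gene by comparison pairs, against 5.2% of all pairs. In C flies on optimal food 2 of 9 genes were called, against 26% of all probe sets. Lpin was one of them, with 9.05, 8.78, 8.75 and 8.75 at middle age and 9.39, 9.58, 9.68 and 9.63 at old age, without overlap (0.73 ± 0.20, limma, adjusted p = 0.00787). Lsd-2 was the other, with 12.30, 12.40, 11.96 and 12.17 at middle age and 12.16, 11.92, 11.42 and 11.45 at old age, so that the ages overlapped (-0.47 ± 0.14, adjusted p = 0.0105). The call for Lsd-2 was lost without middle-aged replicate 2 or old replicate 3 or 4, down to -0.36 (adjusted p = 0.0841). Lsd-1 and SREBP also did not overlap between ages, which made 3 of 9 genes against 22.9% of all probe sets, but were not called (Lsd-1 0.65, adjusted p = 0.074).

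Germline genes moved with age in the same arrays. In C flies on optimal food 9 of 14 were called lower and 1 higher in old flies (median -0.47), and their mean was 10.00 to 10.11 in middle-aged arrays and 9.88, 9.88, 9.47 and 9.53 in old arrays. When the germline mean entered the fit as a covariate, which was added after the data were seen, the age differences were 0.17 for Lpin and -0.13 for Lsd-2 (limma, adjusted p = 0.780 for both). Muscle genes (5 of 8 higher, median 0.84) and haemocyte genes (4 of 6 higher, median 0.76) moved as well. The part that germline, muscle or haemocyte genes had in the age differences was not tested.

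In SR flies on optimal food no gene was called with age (0.955% of all probe sets), and Lpin read 9.03, 9.13, 8.82 and 9.57 at middle age and 8.58, 9.30, 8.51 and 8.87 at old age, which overlapped. The age effect on Lpin differed between the lines by -1.06 ± 0.29 (limma, adjusted p = 0.0362), in a contrast that called 5.26% of all probe sets. It was the only 1 of 99 differences between effects that passed over 11 such contrasts, where 1.25% of all pairs did and 21 of the 99 had an unadjusted p under 0.05. Leaving out 1 array ended the call for 9 of the 16 arrays concerned, with values then between -0.91 and -1.08 and an adjusted p of up to 0.0967. With the germline covariate the difference was -0.62 (adjusted p = 0.153), and with arrays centred on neuron genes -0.70 (adjusted p = 0.0972).

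On malnutrition old SR flies had lower Lsd-1 (8.15, 8.00, 7.82 and 7.56) than middle-aged SR flies (9.08, 9.18, 8.88 and 8.99), without overlap. The difference of -1.15 ± 0.27 just passed (limma, adjusted p = 0.0471), as 1 of 9 genes against 0.327% of all probe sets. The ages were likewise separate for mdy, which made 2 of 9 genes without overlap against 5.07% of all probe sets. The Lsd-1 call was lost without any 1 of 7 of these 8 arrays, with values from -1.04 to -1.20 and an adjusted p of up to 0.139. The corresponding arrays of C flies overlapped (9.02, 7.98, 7.90 and 8.20 against 8.22, 7.98 and 8.74), and the difference between the lines did not pass (-1.19 ± 0.40, adjusted p = 0.746). In the same SR arrays FASN1 (-0.70, adjusted p = 0.144) and mdy (-0.36, adjusted p = 0.076) were not called. Old replicate 1, the highest of its group for Lpin, FASN1, mdy and Lsd-1, stood at the edge of its group for 9 of 9 genes, and without it FASN1 was -0.95 (adjusted p = 0.00437) and mdy -0.45 (adjusted p = 0.00669). That array had a germline mean of 9.43, against 9.91 to 10.05 in the other 3 of its group. Its follicle cell mean was the lowest too (4.75, others 4.97 to 5.06). It was the highest for fat body (8.06, others 7.08 to 7.67), oenocyte (9.83, others 8.21 to 9.33) and midgut genes (8.63, others 7.23 to 7.89). The same held for muscle (10.46), neuron (7.61) and haemocyte genes (6.66). The part of these tissues was not tested.

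**Figure D4:**
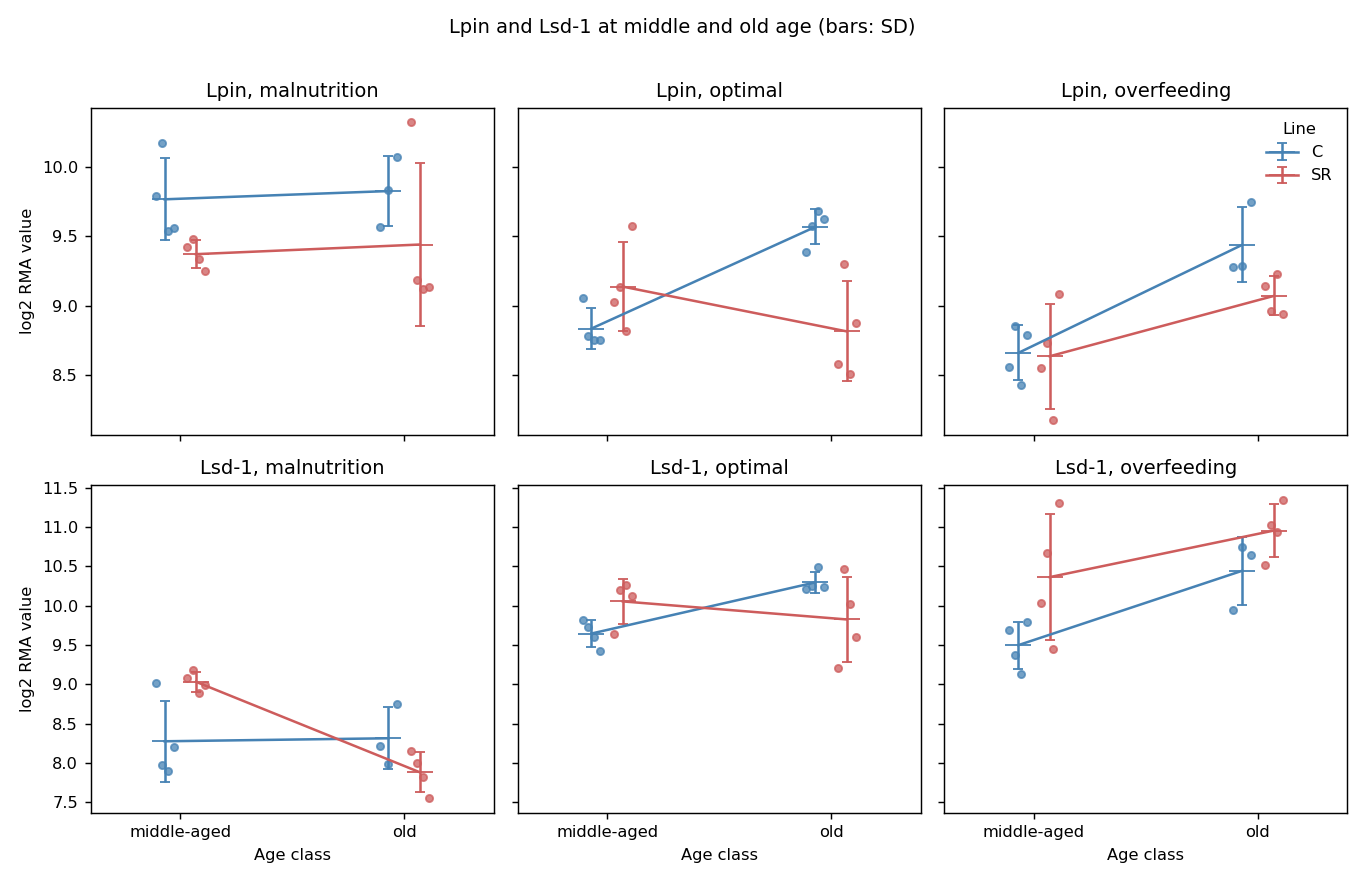
Log2 transcript abundance of Lpin and Lsd-1 (vertical axes) in middle-aged and old flies of both lines on each diet (horizontal axes). Points are arrays, and the joined marks are group means with bars of 1 SD. Lpin in C flies on optimal food rose from 8.75 to 9.05 at middle age to 9.39 to 9.68 at old age, and Lsd-1 in SR flies on malnutrition fell from 8.88 to 9.18 to 7.56 to 8.15.

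No gene was called with age in C flies on malnutrition (0.823% of all probe sets), where bmm and FASN1 did not overlap (2 of 9 genes, against 6.9%), in C flies on overfeeding (1.24%) or in SR flies on overfeeding (1.79%). On overfeeding the ages of C flies did not overlap for bmm, Lsd-1, Lpin and SREBP, 4 of 9 genes against 20.2% of all probe sets. Old flies were higher for bmm, Lsd-1 and Lpin but lower for SREBP (-0.16, limma, adjusted p = 0.363). In C flies on optimal food the age difference of SREBP was 0.18 (adjusted p = 0.099). Its age effects on these diets differed by -0.34 ± 0.12, which did not pass (adjusted p = 0.660). Lpin read 8.56, 8.86, 8.43 and 8.79 at middle age and 9.28, 9.29 and 9.75 at old age (0.78, limma, adjusted p = 0.062), and Lsd-1 9.69, 9.38, 9.13 and 9.79 against 9.95, 10.74 and 10.64 (0.95, adjusted p = 0.099). Neither passed, and both pointed the same way as in C flies on optimal food. Averaged over lines and diets, 3 of 9 genes were called, against 18.2% of all probe sets, and each was higher in old flies (8.86% of all probe sets): Lpin by 0.29 ± 0.08 (adjusted p = 0.0141), bmm by 0.16 ± 0.05 (adjusted p = 0.0113) and SREBP by 0.10 ± 0.03 (adjusted p = 0.0322). With arrays centred on neuron genes none of the 3 passed. Lpin was then 0.10 (adjusted p = 0.184), and bmm and SREBP turned to -0.03 and -0.09. With the germline covariate none of the 3 passed. Lpin was then 0.05 (adjusted p = 0.809) and SREBP 0.07 (adjusted p = 0.440), whereas bmm kept its size of 0.16 (adjusted p = 0.0867). The share of all probe sets called with the covariate is not given here. The SREBP call was also lost without any 1 of 3 arrays (malnourished old C replicates 2 and 3 and overfed old C replicate 3, adjusted p of up to 0.0531).

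Between the lines 4 of 54 pairs of the 9 genes were called, a share near the 5.85% of all pairs. In middle-aged flies on optimal food 2 of 9 genes were called, against 16.7% of all probe sets. ACC read 11.23, 11.14, 11.15 and 11.12 in SR flies and 10.59, 10.80, 10.86 and 10.86 in C flies, without overlap (0.38 ± 0.13, limma, adjusted p = 0.0440), a call lost without any 1 of the 8 arrays (0.32 to 0.41, adjusted p of up to 0.130). The ACC call was also lost with arrays centred on neuron genes (0.06, adjusted p = 0.738) and with the germline covariate (0.28, adjusted p = 0.0649). Lsd-2 read 12.11, 11.62, 11.93 and 11.55 in SR flies and 12.30, 12.40, 11.96 and 12.17 in C flies, which overlapped (-0.41 ± 0.14, adjusted p = 0.0360). Its call was lost without any 1 of 5 of the 8 arrays, down to -0.32 (adjusted p = 0.16). Desat1 also did not overlap, at 12.51, 12.28, 12.08 and 12.32 in SR flies and 12.04, 11.96, 12.07 and 11.91 in C flies, but did not pass (0.30, adjusted p = 0.051). With SREBP, arrays of the lines did not overlap for 3 of 9 genes, against 20.7% of all probe sets.

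In middle-aged flies on overfeeding Desat1 was the 1 gene called, against 4.47% of all probe sets. It read 12.22, 12.24, 12.02 and 12.34 in SR flies and 11.95, 11.74, 11.70 and 11.92 in C flies, without overlap (0.38 ± 0.11, limma, adjusted p = 0.0353), and the call was lost without any 1 of 5 of the 8 arrays. The Desat1 call was also lost with arrays centred on neuron genes (0.15, adjusted p = 0.414). Lsd-1 was 0.86 higher in SR flies (adjusted p = 0.0616), and 1.17 higher (adjusted p = 0.00516) without SR replicate 3, whose 9.45 lay below the 10.03, 10.66 and 11.31 of its group. In old flies on optimal food Lpin was lower in SR flies, at 8.58, 9.30, 8.51 and 8.87 against 9.39, 9.58, 9.68 and 9.63 in C flies, without overlap (-0.75 ± 0.20, adjusted p = 0.0218). It was the 1 gene called there, against 4.35% of all probe sets, and was lost without any 1 of 4 arrays (adjusted p of up to 0.0958).

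No gene was called between lines in middle-aged (3.41% of all probe sets) or old flies (3.59%) on malnutrition or in old flies on overfeeding (2.55%). In the last comparison arrays of the lines did not overlap for 4 of 9 genes (mdy, Lpin, Desat1 and SREBP), against 13.1% of all probe sets. Averaged over diets and ages, 3 of 9 genes differed, against 20.2% of all probe sets. Desat1 was higher in SR flies by 0.16 ± 0.05 (limma, adjusted p = 0.0101), and Lpin (-0.27 ± 0.08, adjusted p = 0.0182) and mdy (-0.13 ± 0.04, adjusted p = 0.0143) were lower. With arrays centred on neuron genes the calls for Desat1 (0.09, adjusted p = 0.334) and mdy (-0.19, adjusted p = 0.101) were lost. Lsd-1 (0.27, adjusted p = 0.0891) and bmm (-0.11, adjusted p = 0.0861) did not pass, except without any 1 of 3 arrays for Lsd-1 (adjusted p down to 0.0227) and any 1 of 4 for bmm (down to 0.0195). Haemocyte genes were called higher in SR flies in 3 of 6 (median 0.77) at middle age on optimal food. The mean of the neuron genes was 6.48 in SR flies and 6.16 in C flies there. The part of haemocyte or neuron genes in the result was not tested.

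Overfeeding, compared with optimal food, changed none of the 9 genes in any line or age (0 of 36 pairs in limma, 3 of them at an unadjusted p under 0.05, against 0.557% of all pairs called). The closest was Lsd-1 in old SR flies, which read 10.52, 11.02, 10.93 and 11.34 on overfeeding and 9.21, 10.46, 10.02 and 9.61 on optimal food, without overlap (1.13 ± 0.27, adjusted p = 0.0626). Without optimal food replicate 2 the difference was 1.34 (adjusted p = 0.0230). FASN1 on overfeeding lay between 12.01 and 13.10 and on optimal food between 12.32 and 12.97, so that a step from 2 to 5 times the standard concentration left it in the same range. Averaged over lines and ages, 0 of 9 genes passed, against 16.3% of all probe sets, with Lsd-1 at 0.36 (adjusted p = 0.0693), which passed without any 1 of 3 arrays (0.41 to 0.44, adjusted p down to 0.0252).

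Over the 12 group means, several of the 9 genes followed each other. The correlation was 0.944 for Lsd-1 and FASN1, 0.926 for FASN1 and ACC, 0.841 for mdy and FASN1 and 0.808 for bmm and Lpin. These points share the diets, so the same pairs were also set against each other as deviations from the group means over 46 arrays, where r was 0.498, 0.717, 0.318 and 0.382. FASN1 and Desat1, which hardly followed each other over the group means (r = 0.242), did so within groups (r = 0.659), and Lpin and FASN1 went opposite ways over group means (r = -0.628) and the same way within groups (r = 0.623). Among 6997 genes with a mean value of at least 6, the genes most like FASN1 over the 12 group means were Jhbp13 (r = 0.985), Cpr65Au (0.982) and CG32444 (0.981), and those most like Lsd-1 were CG5958 (0.978), alpha-Est2 (0.977) and Nepl6 (0.973). Lpin was followed most closely by Cyp4ac3 (0.983), Act88F, an actin of flight muscle (0.946), and CG1894 (0.933), Lsd-2 by CanB2 (0.982), Fsn (0.973) and CG17985 (0.972), and ACC by GNBP3 (0.968), SCOT (0.958) and RpLP0 (0.955). The best matches were weaker for mdy (CG13299 0.942, CG1304 0.939, CG16749 0.938), bmm (Ubi-p63E 0.936, Srx 0.930, kraken 0.928), Desat1 (psh 0.887, RanBPM 0.875, Pxn 0.871) and SREBP (cactin 0.841, Afg3l2 0.838, CG14075 0.821).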

How the data were processed

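RNA of pools of 5 whole females was hybridised to Affymetrix Drosophila 2.0 arrays, of which the authors excluded 2 of 48 for quality. The authors deposited log2 values made with RMA (R 2.7.0 per the submitters' notes), which equalises the distributions of all arrays, so a shift shared by most genes is already removed. The values carry no depth, and the number of arrays limits their precision. From the deposited log2 values, 1 mean per group was fitted with limma 3.58.1 in R 4.3.3 (lmFit, eBayes, two-sided), and 35 contrasts of the 12 means were adjusted by Benjamini-Hochberg over 18952 probe sets each. limma stands in for the permutation-based analysis of variance of the study's methods. Of the probe sets 13646 name 1 gene, 402 several, 1 none and 4903 are not listed. The brightest probe set naming 1 gene was used. mdy, Desat1 and SREBP are read by probe sets whose design class can match more than 1 transcript.

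The genes and lists were chosen with earlier results of these data known. All 9 members were named, together with up to 3 called genes per list and contrast, and the 3 genes most correlated with each member. Further list genes called in the average malnutrition contrast were named after their values were seen. Marker lists held 5 to 14 measured genes. Alternatives were array weights, limma-trend, a mean of at least 5, median centring, the compared groups alone, the replicate number as a block, leaving out each array and, added after the data were seen, germline and neuron adjustments. The steps were tested on simulated data. Same-numbered arrays deviated together in 2 of 20 contrasts, with correlations of 0.344 to 0.401 between the ages of optimally fed C flies and of 0.118 to 0.192 between the lines in overfed old flies, and no source says that a number marks a batch. Promoter and protein sequences were not used here.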

Additional observations from a re-analysis of the deposited data

Results flagged for a closer look

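Of 90 gene by group sets of 4 arrays, 6 held an array that stood far from the other 3 (Dixon's test, which chance meets in about 1 of 20 groups). Lpin in old SR flies on malnutrition was 10.32 in replicate 1 and 9.12 to 9.19 in the others. SREBP in middle-aged C flies on malnutrition was 10.02 in replicate 2 and 9.67 to 9.70 in the others. ACC in old C flies on optimal food was 10.65 in replicate 1 and 11.12 to 11.20 in the others. Lpin in middle-aged C flies on optimal food was 9.05 in replicate 1 against 8.75 to 8.78, bmm in old SR flies on optimal food 10.54 in replicate 2 against 10.29 to 10.32, and Lsd-1 in old C flies on optimal food 10.49 in replicate 3 against 10.21 to 10.25.

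The age effect on Lpin on optimal food differed between the lines by a tested interaction of -1.06 (limma, adjusted p = 0.0362). Lpin was higher in old than in middle-aged C flies on that diet and was not called in SR flies.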

How the results depend on the processing

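Of 43 called gene by contrast pairs, 43 were kept with limma-trend and with a mean of at least 5, 42 with array weights, 39 with median centring, 36 with the germline covariate and 24 with neuron centring (arrays centred on neuron genes), where 13 turned sign. Fitting only the compared groups kept 19 of 29 pairs, and was not run for average effects. Among malnutrition calls it lost bmm (limma, adjusted p = 0.0588), Lsd-2 (0.294) and ACC (0.146) in old C flies. SREBP in middle-aged C flies (0.0624) and Lpin in old SR flies (0.259) were lost as well. Signs under neuron centring were compared only for values with an unadjusted p under 0.05, called or not. Smaller differences that turned are therefore not listed. For malnutrition, bmm turned to -0.82 (middle-aged C), -0.42 (old C), -0.21 (middle-aged SR), -0.70 (old SR) and -0.54 (average). Lpin turned to -0.13 (middle-aged C), -0.31 (old SR) and -0.36 (average). SREBP turned to -0.76 (middle-aged C), -0.70 (old C) and -0.72 (average), and Lsd-2 to -0.46 (old C), -0.52 (old SR) and -0.64 (average). With age the values that turned were SREBP -0.11 (C, optimal food), -0.033 (SR, malnutrition) and -0.089 (average) and bmm -0.056 (C, overfeeding) and -0.028 (average). Desat1 between lines in middle-aged flies on optimal food was -0.021 and the line by malnutrition difference of SREBP at middle age 0.15. The called malnutrition differences of FASN1, Lsd-1, ACC and mdy, all negative, kept their sign. Neuron centring subtracts 1 value per array, so it moved a given difference of every probe set by the same amount. For malnutrition that was -1.06 (middle-aged C), -0.90 (old C), -0.60 (middle-aged SR), -0.93 (old SR) and -0.87 (average). Smaller rises turn and falls keep their sign for any gene, so these signs do not set genes apart. The cause of the shift was not tested.

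The count of called pairs for age (3) was 5 with a mean of at least 5, 11 with array weights, 5 with the germline covariate and 5 with neuron centring. For line (4) it was 10 with array weights and 1 with the compared groups alone. For overfeeding (0) it was 2 with array weights, 1 with the germline covariate, 1 with neuron centring and 1 with median centring. For differences between effects (1) it was 5 with a mean of at least 5, 8 with array weights, 2 with neuron centring and 3 with the compared groups alone. For average effects (14) it was 22 with neuron centring. For malnutrition (21) it was 30 with neuron centring, 16 with the compared groups alone, 19 with median centring and 22 with the germline covariate. Leaving out 1 array gave 1 to 7 for age, 2 to 7 for line, 19 to 22 for malnutrition, 0 to 1 for overfeeding, 0 to 6 for differences between effects and 13 to 16 for average effects. The highest counts of 7, 7 and 6 came without SR malnutrition old replicate 1, and line was also 7 without C malnutrition middle-aged replicate 1.

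With the replicate number as a block the counts were 3 for age, 4 for line, 21 for malnutrition, 0 for overfeeding, 2 for differences between effects and 14 for average effects, with Lsd-1 by age in SR flies on malnutrition (adjusted p = 0.0567) and ACC between lines in middle-aged flies on optimal food (adjusted p = 0.0520) lost. With the block and only the compared groups, added after the data were seen, malnutrition gave 13, overfeeding 2 and differences between effects 3, and 18 of 29 called pairs were kept. The number shows no pairing in most contrasts.

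Of 163 values of named list genes, 100 were kept with neuron centring (19 turned sign), 131 with the germline covariate, 151 with median centring and 160 with the block. Arrays of 3 or 4 pools limit all comparisons.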

Other observations

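Outside malnutrition, single genes of the pathway lists differed with age or between lines. Dgat2, of the DGAT2 family of triglyceride synthesis, read 4.14 to 4.79 in middle-aged and 5.43 to 6.42 in old SR flies on overfeeding, without overlap (1.48 ± 0.22, limma, adjusted p = 6.10e-05). The middle-aged values lay below the array medians of 5.04 to 5.27, so the size of the difference is uncertain. In C flies it was higher in old flies by 0.66 ± 0.22 on optimal food (adjusted p = 0.0265) and by 0.90 ± 0.24 on overfeeding (adjusted p = 0.0497), calls that were lost without any 1 of 4 and any 1 of 6 arrays. Averaged over lines and diets the difference was 0.58 ± 0.09 (adjusted p = 2.25e-05). In C flies on optimal food, where 26% of all probe sets were called, age raised the peroxisomal gene Mfe2 (0.71 ± 0.15, adjusted p = 0.00112), FASN2 (0.82 ± 0.25, adjusted p = 0.0140) and Ldsdh1 (0.79 ± 0.23, adjusted p = 0.00971), and lowered S1P, the protease that cleaves SREBP (-0.74 ± 0.18, adjusted p = 0.00341), and foxo (-0.51 ± 0.14, adjusted p = 0.00644). None of these 5 passed with the germline mean as a covariate. The share of all probe sets called in that fit is not given here, so the loss does not set these genes apart.

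Acox57D-d, a peroxisomal acyl-CoA oxidase, was lower in SR flies than in C flies in 6 of 6 diet and age combinations, from -0.49 ± 0.13 in middle-aged flies on malnutrition (limma, adjusted p = 0.0217) to -0.97 ± 0.14 in old flies on overfeeding (adjusted p = 1.34e-05), and by -0.73 ± 0.05 on average (adjusted p = 1.49e-13, 20.2% of all probe sets called). In old flies on overfeeding its arrays lay at 8.65 to 8.83 in SR flies and 9.68 to 9.73 in C flies. The smallest difference was lost without any 1 of 4 of its 8 arrays, and that in old flies on malnutrition without 1 of 7. The nuclear receptor gene Hnf4 was lower in SR flies by 0.32 on average (-0.32 ± 0.03, adjusted p = 1.19e-12) and CPT2 higher (0.30 ± 0.03, adjusted p = 1.01e-09). SR flies also had more sug (0.53 ± 0.11, adjusted p = 0.000484) and less S1P (-0.32 ± 0.07, adjusted p = 0.00139) and bgm, a long-chain acyl-CoA synthetase (-0.32 ± 0.04, adjusted p = 3.83e-08).

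On overfeeding, averaged over lines and ages, 6 of 14 oxidation genes were called higher than on optimal food and none lower (median 0.09, beside 0.03 over all probe sets, of which 16.3% were called). They included the thiolase yip2 (0.29 ± 0.05, limma, adjusted p = 0.000911), Arc42 (0.24 ± 0.05, adjusted p = 0.00133) and Echs1 (0.19 ± 0.05, adjusted p = 0.0115). FASN3 (-0.47 ± 0.13, adjusted p = 0.0158) was lower and Jabba (0.30 ± 0.08, adjusted p = 0.0122) higher.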
